A study of Mus musculus with 24 samples.

Results

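The heat shock chaperones and co-chaperones described here are 10 protein-folding genes: Hspa1a, Hspa1b, Hspb1, Dnajb1, Dnajb5, Bag3, Hsph1, Hspa8, Hsp90aa1 and Hspa5. They were picked by symbol, with earlier results of these data known. Each symbol matched 1 Ensembl identifier, so they are 10 of the 37621 features counted in every library. The libraries were made from poly(A) RNA of dissected cerebellum, cortex, hippocampus and olfactory bulb of C57BL/6 mice that were either wild type or knockout for Cdr1as, the locus of a circular RNA that binds microRNAs and is abundant in brain. There were 3 libraries per region and genotype and 24 in all. The labels give no age, sex or treatment, and they do not say whether replicates were separate animals or whether libraries with equal numbers came from 1 animal. P-values therefore measure the spread between these samples, which may be technical.

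Heat shock proteins keep other proteins folded. When unfolded proteins accumulate in the cytosol, the transcription factor HSF1 binds heat shock elements in promoters and induces the HSP70 proteins, small heat shock proteins and their helpers. J-domain proteins hand clients to HSP70 and start its ATP hydrolysis, and nucleotide exchange factors let the client go. The endoplasmic reticulum (ER) has its own HSP70 and its own alarm, the unfolded protein response, which acts in part through ER stress elements. In brain the constitutive HSP70 and HSP90 proteins are abundant, while the inducible HSP70 genes are low at rest and respond to heat and other stress.

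The promoters of 5 members are shown because these members varied together between libraries, as described below, and carry matches to the 2 stress elements. Each run holds the 250 bases before an annotated start, 5′ to 3′ on the gene's strand, from RefSeq on GRCm38.p6. Capitals mark a heat shock element of 2 units, in either order (GAANNTTC or TTCNNGAA, each its own reverse complement), or the ER stress element, CCAAT and CCACG with 9 bases of any kind between them, searched on both strands.
Hspa1a, chr17:34972157-34972406, minus strand: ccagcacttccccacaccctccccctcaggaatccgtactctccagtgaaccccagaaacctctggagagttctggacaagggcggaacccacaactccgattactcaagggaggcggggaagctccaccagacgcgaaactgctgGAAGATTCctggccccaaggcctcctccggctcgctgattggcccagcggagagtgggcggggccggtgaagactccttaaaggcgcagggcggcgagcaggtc
Hspa1b, chr17:34959239-34959488, minus strand: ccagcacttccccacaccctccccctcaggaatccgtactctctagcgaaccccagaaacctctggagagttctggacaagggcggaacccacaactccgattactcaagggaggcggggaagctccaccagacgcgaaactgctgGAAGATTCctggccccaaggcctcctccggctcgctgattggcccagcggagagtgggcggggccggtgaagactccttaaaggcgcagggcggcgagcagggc
Hspb1, chr5:135887669-135887918, plus strand: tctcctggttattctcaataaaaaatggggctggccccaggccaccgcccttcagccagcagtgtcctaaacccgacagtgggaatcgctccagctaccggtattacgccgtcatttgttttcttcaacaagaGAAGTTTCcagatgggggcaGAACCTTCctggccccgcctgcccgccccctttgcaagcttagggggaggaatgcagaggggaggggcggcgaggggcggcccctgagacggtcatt
Hsph1, chr5:149636337-149636586, minus strand: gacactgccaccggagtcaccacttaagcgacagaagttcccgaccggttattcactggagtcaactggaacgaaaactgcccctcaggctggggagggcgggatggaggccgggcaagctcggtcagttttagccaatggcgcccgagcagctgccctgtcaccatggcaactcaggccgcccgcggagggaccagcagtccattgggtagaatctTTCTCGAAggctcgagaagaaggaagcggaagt
Hspa5, chr2:34771840-34772089, plus strand: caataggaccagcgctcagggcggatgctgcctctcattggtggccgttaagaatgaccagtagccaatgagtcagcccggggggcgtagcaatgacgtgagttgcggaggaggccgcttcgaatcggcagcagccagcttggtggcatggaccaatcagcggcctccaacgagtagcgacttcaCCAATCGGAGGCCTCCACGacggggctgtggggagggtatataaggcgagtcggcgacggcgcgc
Dnajb5 is shown for contrast, since it did not vary with the others between libraries.
Dnajb5, chr4:42949617-42949866, plus strand: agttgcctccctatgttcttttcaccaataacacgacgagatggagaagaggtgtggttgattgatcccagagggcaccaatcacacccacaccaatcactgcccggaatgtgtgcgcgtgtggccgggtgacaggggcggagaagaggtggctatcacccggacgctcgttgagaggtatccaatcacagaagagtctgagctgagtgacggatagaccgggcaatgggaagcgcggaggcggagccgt
The Hspa1a and Hspa1b runs differ at 3 of 250 bases. One or other form of the heat shock element was found in 12.8% of 32851 promoter windows of this length. Among the members, Hspa1a and Hspa1b held 1 GAANNTTC each, Hspb1 held 2, and Hsph1 held 1 TTCNNGAA. In Hspa1a and Hspa1b the match lay 104 to 97 bases before the start. The ER stress element was found in 0.113% of windows and, among the members, in Hspa5, at 65 to 47 bases before the start. The Dnajb1, Dnajb5 and Bag3 windows held neither match. Yet Dnajb1 varied with the members other than Dnajb5 and Bag3, at correlations from 0.69 with Hsp90aa1 to 0.851 with Hspa1a. Hspa8 and Hsp90aa1, which also varied with them, had no promoter entry and are not shown. The 5 windows were picked for their matches, so they do not tell whether matches go with the shared variation. A match describes letters in a window and is not a site.

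Depth ran from 21068566 to 40472007 gene counts per library. The feature that the authors added for the Cdr1as locus had 61 to 973 counts in the 12 wild-type libraries and 4 to 43 in the 12 knockout libraries, with no overlap in any of the 4 regions. Summed markers of cerebellum, cortex, hippocampus and olfactory bulb were higher in all 6 libraries of their own region than in any library of the others. Wild-type replicate 1 of each region stood apart in the chaperone genes, so the knockout comparison, the counts in related gene lists and the correlations among members are also given without it or without all libraries numbered 1. The genes most like a member, and the correlations with markers and read statistics, are given with all 24 libraries. Reads that fit more than 1 place were not counted by the authors, which touches 5 members. Of the 50-base stretches of its transcripts, Hspa1a shared 66.3% with other genes, Hspa1b 62.3%, Hspb1 50.1%, Hsp90aa1 47.5% and Hspa8 39.4%, so the counts of these 5 genes are uncertain. The same share was 0.412% for Dnajb1 and 0% for Dnajb5, Bag3, Hsph1 and Hspa5.

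Levels between genes are compared as CPM (counts scaled to library size with TMM factors) per kilobase of exon, as medians over the 24 libraries. Hspa8, the constitutive cytosolic HSP70, was at 374.5 and Hsp90aa1, the stress-inducible form of cytosolic HSP90, at 264.0. Hspa5, the HSP70 of the ER also called BiP, followed at 85.4, and Hsph1, an HSP110 protein that exchanges nucleotide on HSP70, at 55.9. The J-domain genes Dnajb5 and Dnajb1 were at 34.2 and 16.7. Hspb1, a small heat shock protein that holds unfolded clients, was at 6.77 and Bag3, an exchange factor that links HSP70 to autophagy, at 5.29. The inducible HSP70 genes Hspa1a and Hspa1b had the lowest values, at 2.65 and 2.60. Reads that fit more than 1 place were not counted, but the full exon length was used. Values of Hspa1a, Hspa1b, Hspb1, Hsp90aa1 and Hspa8 may thus be too low, and the place of these genes in the order is uncertain. The spread between replicates also differed between genes, with a median coefficient of variation over the 8 groups of 61.8% for Hspa1b, 45.6% for Hspa1a and 42.6% for Hspa5, and of 8.12% for Dnajb5.

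The clearest pattern was between replicates of 1 group. Wild-type replicate 1 was the highest of its 3 libraries in 36 of the 40 combinations of member and region, and knockout replicate 3 in 32 of 40. Hspa1b, 1 of the twin inducible HSP70 genes, was at 20.1, 2.41 and 3.43 CPM in wild-type cerebellum replicates 1, 2 and 3. In wild-type cortex it was at 20.7, 4.74 and 5.51, in hippocampus at 25.7, 9.27 and 7.69, and in olfactory bulb at 7.99, 2.29 and 2.88. Replicate 1 was thus far above the others in each region, by 3.03 to 6.89 times their mean. In the knockout, Hspa1b was at 6.91, 5.77 and 12.5 CPM in cerebellum, 8.59, 6.14 and 16.9 in cortex, 14, 11.9 and 23.9 in hippocampus, and 5.90, 3.19 and 6.37 in bulb. There replicate 3 was the highest in each region, by 1.40 to 2.29 times the mean of the others.

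Hspa5 showed the wild-type pattern with less variation between regions. It was at 794, 267 and 291 CPM in wild-type cerebellum, 848, 268 and 371 in cortex, 800, 233 and 322 in hippocampus, and 664, 251 and 281 in bulb. Replicate 1 was 2.49 to 2.88 times the mean of the others, and it was above all 3 knockout libraries in each region. The knockout libraries held 595, 352 and 602 CPM in cerebellum, 434, 343 and 519 in cortex, 337, 299 and 391 in hippocampus, and 407, 343 and 424 in bulb. Knockout replicate 3 was the highest in all 4 regions but by no more than 1.34 times the mean of the others.

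**Figure D1:**
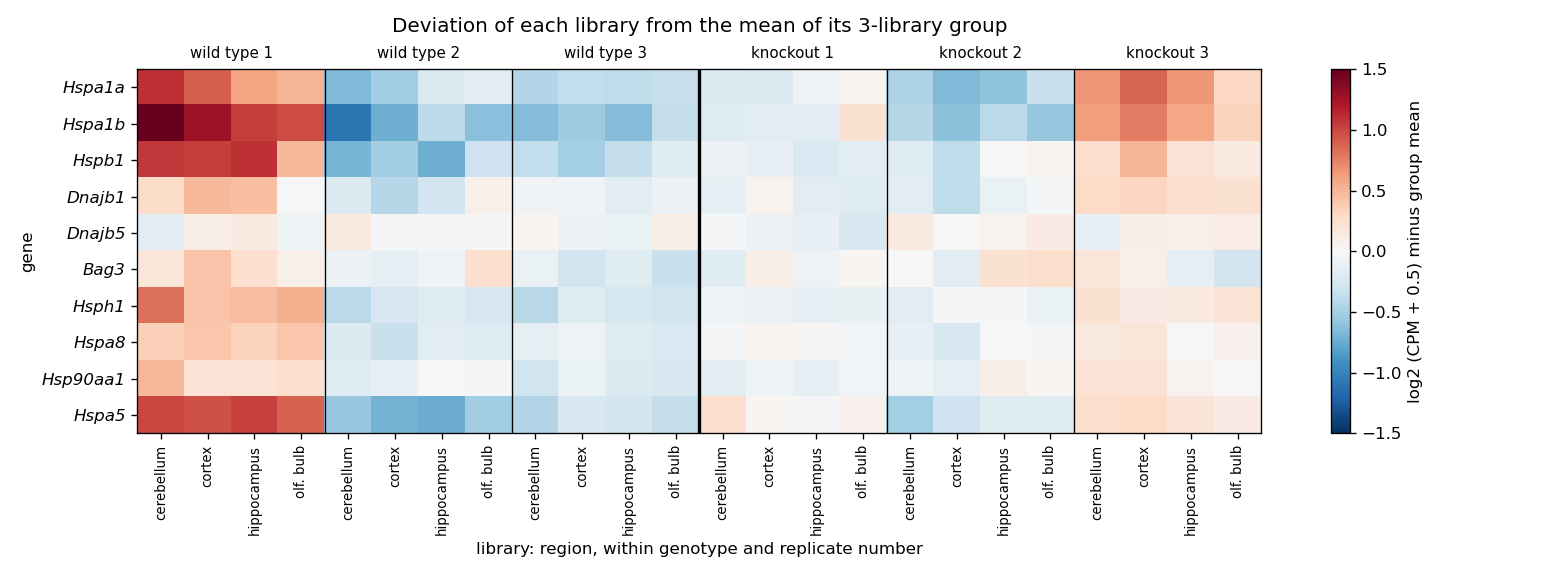
Deviation of each library from the mean of its group of 3, as log2(CPM + 0.5), for the 10 genes (lines) and 24 libraries (columns, ordered by genotype and replicate number, then region), with red above and blue below the mean. The 4 wild-type replicate 1 columns are red for most genes and the knockout replicate 3 columns are paler red, while the Dnajb5 line is nearly blank.

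For Hspa1a, wild-type replicate 1 was 1.76 to 3.37 times the mean of the others, for Hspb1 1.72 to 3.30 times and for Hsph1 1.56 to 2.37 times. The more abundant Hspa8 and Hsp90aa1 stood 1.43 to 1.55 and 1.23 to 1.67 times above the others. The range was 1.07 to 1.61 times for Bag3 and 1.01 to 1.64 times for Dnajb1, above those of Hspa8 and Hsp90aa1 in cortex, and 0.833 to 1.15 times for Dnajb5. Wild-type replicate 1 was the highest in all 4 regions for 7 of 10 members, against 5.44% of 17266 genes, and at least 1.5 times the others in all 4 for 5 of 10, against 0.487%. Knockout replicate 3 was the highest in all 4 regions for 6 of 10 members, against 1.55%, and at least 1.5 times the others in all 4 for 0, against 0.0753%. Wild-type replicates 1 held 21069332 to 36208610 gene counts and wild-type replicates 2 and 3 held 21068566 to 34607352.

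Other genes of the same pathways moved with these libraries to different degrees. Of 19 ER chaperone and unfolded protein response genes, 16 were highest in wild-type replicate 1 in all 4 regions and 12 were at least 1.5 times the others in all 4. They included Sdf2l1, an ER co-chaperone, at 2.74 to 4.03 times, Manf, a secreted ER stress protein, at 2.09 to 2.78 times, Pdia6, a disulfide isomerase, at 1.96 to 2.44 times, and Xbp1, a transcription factor of the response, at 1.75 to 2.14 times. Of 20 HSF1 response and cytosolic chaperone genes, 13 were highest there in all 4 regions but 0 reached 1.5 times in all 4. Of 18 constitutive co-chaperones, 4 were highest and 0 reached 1.5 times. Knockout replicate 3 was the highest in all 4 regions for 7 of the 20 HSF1 response genes, 2 of the 19 ER genes and 0 of the 18 constitutive co-chaperones.

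Of 12 activity-induced early genes, wild-type replicate 1 was the highest in all 4 regions for 0 and the lowest for 5, against 7.65% of all genes lowest there. Their summed level in wild-type replicates 1, 2 and 3 was 148, 203 and 203 CPM in cerebellum and 483, 588 and 791 in cortex. It was 317, 360 and 517 in hippocampus and 283, 638 and 829 in bulb, so replicate 1 had the lowest sum in each region. Of 60 measured cell type and region markers, 5 were highest and 3 lowest in wild-type replicate 1 in all 4 regions. The erythrocyte markers, 2 of 4 measured, were both lowest, with sums of 15.6 to 19.2 CPM there against 19.5 to 47.6 in the other wild-type libraries. Choroid plexus markers, whose sums ran from 7.90 to 3240 CPM over wild-type libraries, were highest in wild-type replicate 1 in all 4 regions for 0 of 6. Whether any of these moved the chaperone genes was not tested.

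The deviations of most members were also correlated. Over 24 libraries, centred log2 CPM of the 8 members other than Dnajb5 and Bag3 correlated at 0.69 to 0.954 over 28 gene pairs (Pearson, median 0.855). This is a description, since the 24 points share libraries, scaling and possibly animals. Without wild-type replicate 1, over 20 libraries, the range was 0.158 to 0.948 with a median of 0.692, and over the 12 knockout libraries it was 0.402 to 0.97. Bag3 correlated at 0.436 to 0.658 with those 8, but at -0.27 to 0.571 without wild-type replicate 1. Dnajb5 stood apart in each set, at -0.136 to 0.198 with the 9 others over 24 libraries. Its correlation with the summed early genes was 0.46.

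Some summed markers and read statistics also moved with members over the 24 libraries. These correlations include wild-type replicate 1, where most members were highest, and were not computed without it or over all genes. For Hspa8 the correlation was 0.726 with astrocyte markers, 0.644 with endothelial markers, 0.575 with hippocampus markers, -0.566 with erythrocyte markers and -0.597 with the share of reads that fit several places. For Hspa5 it was 0.628, 0.71, 0.695, -0.702 and -0.544. Dnajb1 correlated at 0.775 with astrocyte and 0.57 with microglia markers, and Bag3 at 0.74 and 0.766 with these and at -0.744 with the share of reads in no feature. For Dnajb5 these correlations ran from -0.155 with endothelial to 0.162 with erythrocyte markers, apart from -0.296 with hippocampus markers. With the other marker lists Dnajb5 ran from -0.385 for oligodendrocyte precursors to 0.29 for inhibitory neurons. Hspa8 and Hspa5 correlated at 0.515 and 0.544 with precursor markers and at -0.512 and -0.53 with the summed early genes. The part of these markers, early genes and read statistics in the members' pattern was not tested.

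Among 14103 genes of at least 1 CPM, the 5 whose centred log2 CPM correlated best with that of Hspa5 over the 24 libraries were Pdia6 (0.993), Manf (0.992), Pdia3 (0.987), Sdf2l1 (0.984) and Xbp1 (0.982). For Hspa8 they were the ER co-chaperone Dnajb11 (0.962), Stip1 (0.961), which bridges HSP70 and HSP90, Pdia3 (0.96), the ER lectin Calr (0.956) and Ahsa1 (0.956), an activator of HSP90. For Hspa1a they were Hspa1b (0.954), P4ha1 (0.907), a prolyl hydroxylase subunit, Nol4 (0.905), Dnaja1 (0.888) and Xbp1 (0.886). For Dnajb1 they were Api5 (0.861), P4ha1 (0.851), Hspa1a (0.851), the immunophilin Fkbp4 (0.85) and Hspb1 (0.847). Of its 50-base stretches, Hspa1a shared 58.8% with Hspa1b.

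The knockout was compared with the wild type in each region and as a mean over the 4 regions, which asks whether loss of the Cdr1as locus changed these genes. On the mean, 2 of 10 members rose, the J-domain genes Dnajb5 and Dnajb1, and 0 fell, against 2.68% of 17266 genes called, 1.81% higher and 0.863% lower. Within single regions edgeR called 0 of 10 members in cerebellum (0% of genes called), cortex (0.0379%), hippocampus (0%) and olfactory bulb (0%). At an unadjusted edgeR p under 0.05 there were 2, 1, 1 and 2 members, against 862 of 15723, 665 of 15834, 804 of 15572 and 859 of 16131 genes. DESeq2 called 0, 1, 0 and 1, against 0.324%, 0.632%, 0.231% and 0.444% of genes. Of the 40 combinations of member and region, 6 had every knockout library above every wild-type library and 0 had every one below. Of all genes, 6%, 4.85%, 5.28% and 5.69% had all knockout libraries above in cerebellum, cortex, hippocampus and bulb, and 5.01%, 4.29%, 5.09% and 4.33% had all below. In these bulk libraries, fewer cells of a type and less RNA per cell cannot be told apart.

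**Figure D2:**
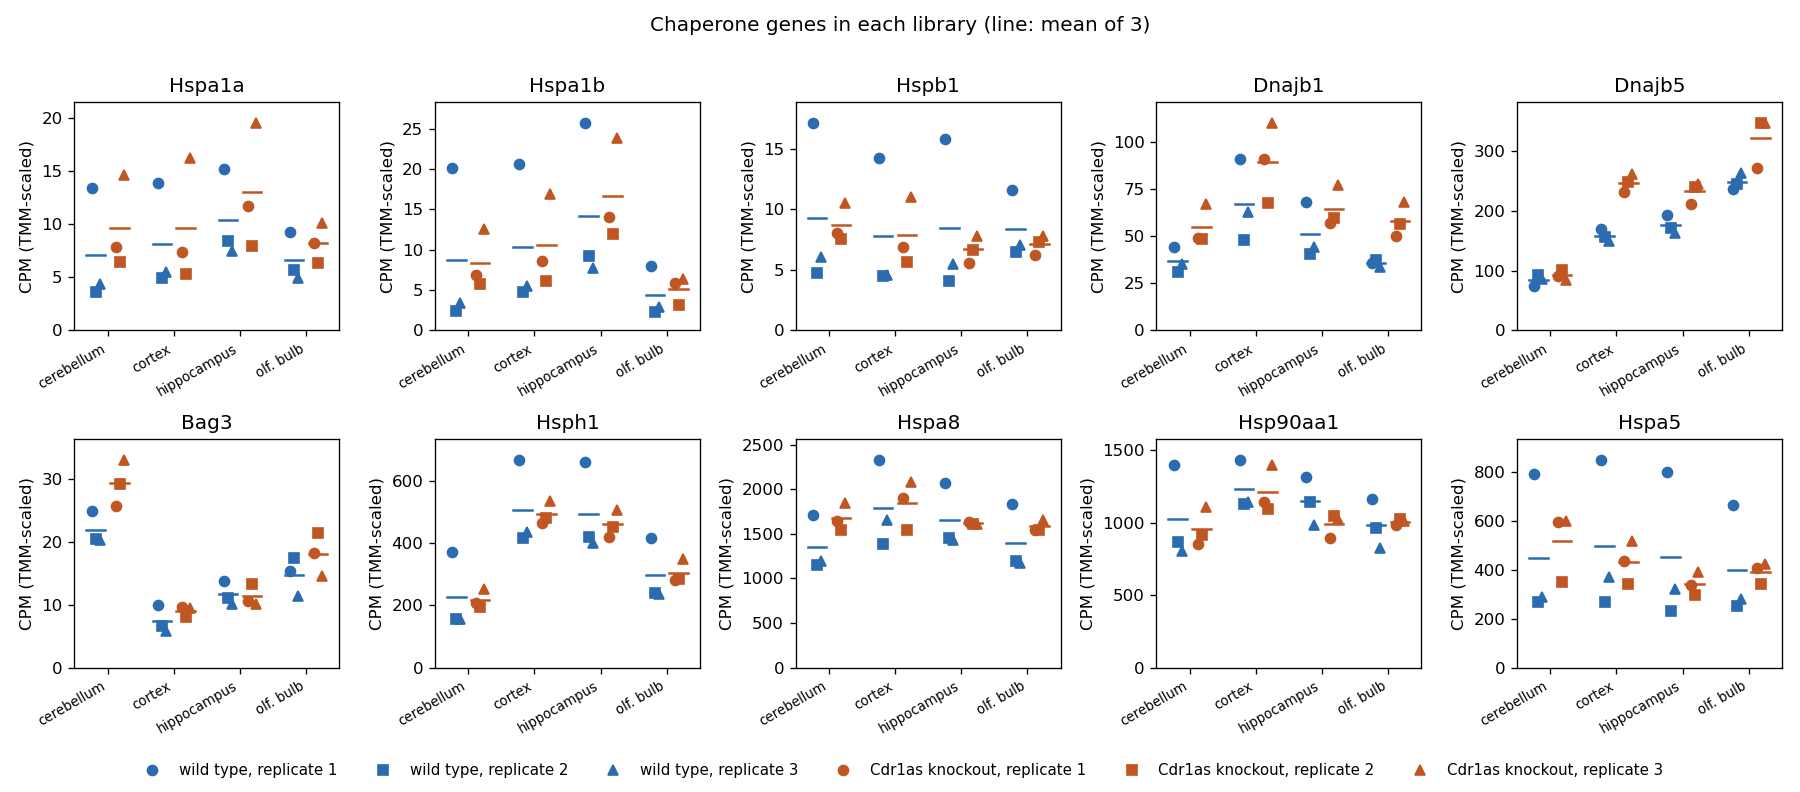
CPM of each gene (linear axis from 0) in the 24 libraries, by region, with wild type in blue and Cdr1as knockout in orange, symbols for the replicate number and lines for the mean of 3. Blue circles, wild-type replicate 1, lie on top for most genes, and the orange points of Dnajb5 lie above the blue ones in cortex, hippocampus and olfactory bulb.

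Dnajb5, a J-domain co-chaperone of HSP70, was at 170, 157 and 149 CPM in wild-type cortex and at 232, 248 and 262 in knockout cortex. In hippocampus the values were 193, 172 and 163 against 213, 241 and 245, and in olfactory bulb 237, 245 and 263 against 272, 348 and 347. All knockout libraries were above all wild-type libraries in these 3 regions. In cerebellum, where the gene was lowest, wild-type values of 74.3, 93.0 and 85.4 overlapped knockout values of 91.0, 101 and 84.3. The log2 fold change was 0.12 in cerebellum, 0.63 in cortex (edgeR adjusted p = 0.0844), 0.40 in hippocampus and 0.36 in bulb. The mean over regions was 0.39 (SE 0.053, edgeR adjusted p = 0.000221), and the gene was higher in 4 of 4 regions. That fit took the 24 libraries as independent, but regions may share animals, so the 4 regions may not be separate evidence. Dnajb5 kept its call when libraries of equal genotype and number were fitted as correlated, where 0.626% of genes were called. The difference of the effect between regions did not pass (edgeR adjusted p = 1, unadjusted p = 0.0232), and 0 of 10 members passed that test, against 0.0232% of genes, with 1 at an unadjusted p under 0.05 and 0 called by DESeq2. Of all genes, 439 of 17266 were at an unadjusted edgeR p under 0.05 in that test. The Dnajb5 mean was 0.36 without the libraries numbered 3, and its call ended (edgeR adjusted p = 0.0857).

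Dnajb1, the HSF1-inducible J-domain partner of HSP70, was at 35.8, 37.4 and 33.6 CPM in wild-type bulb and 50.4, 56.5 and 67.9 in knockout bulb. In cerebellum the values were 44.2, 31.2 and 35.0 against 49.2, 48.4 and 67.1. Knockout libraries were above wild-type libraries without overlap in these 2 regions. In cortex 90.8, 48.0 and 62.7 overlapped 91.1, 67.7 and 110, and in hippocampus 68.2, 40.5 and 44.2 overlapped 56.9, 59.7 and 77.0. The log2 fold change was 0.58, 0.41, 0.34 and 0.70 in cerebellum, cortex, hippocampus and bulb, and 0.51 on the mean (SE 0.118, edgeR adjusted p = 0.0221). That call ended without those numbered 2 (0.49, edgeR adjusted p = 0.122) or 3 (0.30, 0.704), without the cerebellum (0.49, 0.119) and without the bulb (0.44, 0.208). It also ended when libraries of equal genotype and number were fitted as correlated (0.52, limma adjusted p = 0.0954).

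Among the exchange factors, Bag3 was at 24.9, 20.4 and 20.4 CPM in wild-type cerebellum and 25.7, 29.2 and 33.0 in knockout cerebellum, without overlap. Its log2 fold change there was 0.42 (SE 0.129, edgeR adjusted p = 0.738), and 0.28, -0.045 and 0.27 in cortex, hippocampus and bulb, where the groups overlapped. The mean of 0.24 did not pass (edgeR adjusted p = 0.245). Hsph1 lay close to 0 on the mean (-0.043, SE 0.147), and it was at 371, 157 and 156 against 206, 194 and 253 CPM in wild-type against knockout cerebellum and at 665, 416 and 436 against 464, 480 and 534 in cortex. In hippocampus it was at 659, 418 and 398 against 420, 451 and 507 and in bulb at 414, 240 and 238 against 280, 283 and 348. The groups overlapped in all 4 regions, and wild-type replicate 1 was above all knockout libraries in each, while wild-type replicates 2 and 3 were below all of them in each. Replicate 1 was set apart because most members were highest in it. The place of replicates 2 and 3 follows in part from that choice and is no test of the knockout. How many of all genes had this order was not counted.

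The inducible chaperones Hspa1a, Hspa1b and Hspb1 had means of 0.34 (SE 0.273), 0.12 (SE 0.381) and -0.16 (SE 0.261), and none of these passed (edgeR adjusted p = 0.678, 0.957 and 0.888). Hspa1a was at 13.4, 3.64 and 4.33 CPM in wild-type cerebellum and at 7.82, 6.42 and 14.7 in the knockout, so that 1 library of each genotype was far above the other 2. In cortex the values were 13.9, 4.91 and 5.51 against 7.4, 5.3 and 16.3, in hippocampus 15.2, 8.45 and 7.46 against 11.8, 7.92 and 19.6 and in bulb 9.29, 5.65 and 4.93 against 8.28, 6.38 and 10.2, with the same 2 libraries highest. Hspb1 was at 17.1, 4.7 and 6.06 against 8.07, 7.58 and 10.5 CPM in wild-type against knockout cerebellum and at 14.2, 4.52 and 4.56 against 6.87, 5.67 and 11 in cortex. In hippocampus Hspb1 was at 15.8, 4.1 and 5.48 against 5.59, 6.65 and 7.79 and in bulb at 11.6, 6.45 and 7.08 against 6.24, 7.27 and 7.82. Wild-type replicate 1 was above every knockout library for Hspb1 in all 4 regions.

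The abundant chaperones gave small means with wide overlap. Hspa8 was at 1708, 1149 and 1196 against 1649, 1543 and 1850 CPM in wild-type against knockout cerebellum, 2326, 1382 and 1651 against 1902, 1546 and 2078 in cortex, 2070, 1457 and 1434 against 1637, 1608 and 1613 in hippocampus and 1835, 1200 and 1175 against 1544, 1548 and 1659 in bulb. Wild-type replicates 2 and 3 of Hspa8 were below all knockout libraries in cerebellum, hippocampus and bulb, but not in cortex. As for Hsph1, this order leaves aside replicate 1, was not counted over all genes and is no test of the knockout. Hsp90aa1 was at 1399, 866 and 807 against 850, 912 and 1110 CPM in cerebellum, 1430, 1128 and 1144 against 1144, 1093 and 1399 in cortex, 1312, 1143 and 986 against 897, 1047 and 1028 in hippocampus and 1161, 960 and 823 against 980, 1028 and 1014 in bulb. Wild-type replicate 1 of Hsp90aa1 was above every knockout library in all 4 regions. The mean log2 fold change over regions was 0.13 for Hspa8 (SE 0.0999), -0.074 for Hsp90aa1 (SE 0.0887) and -0.11 for Hspa5 (SE 0.256), with edgeR adjusted p of 0.666, 0.817 and 0.935. Their groups overlapped in every region.

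**Figure D3:**
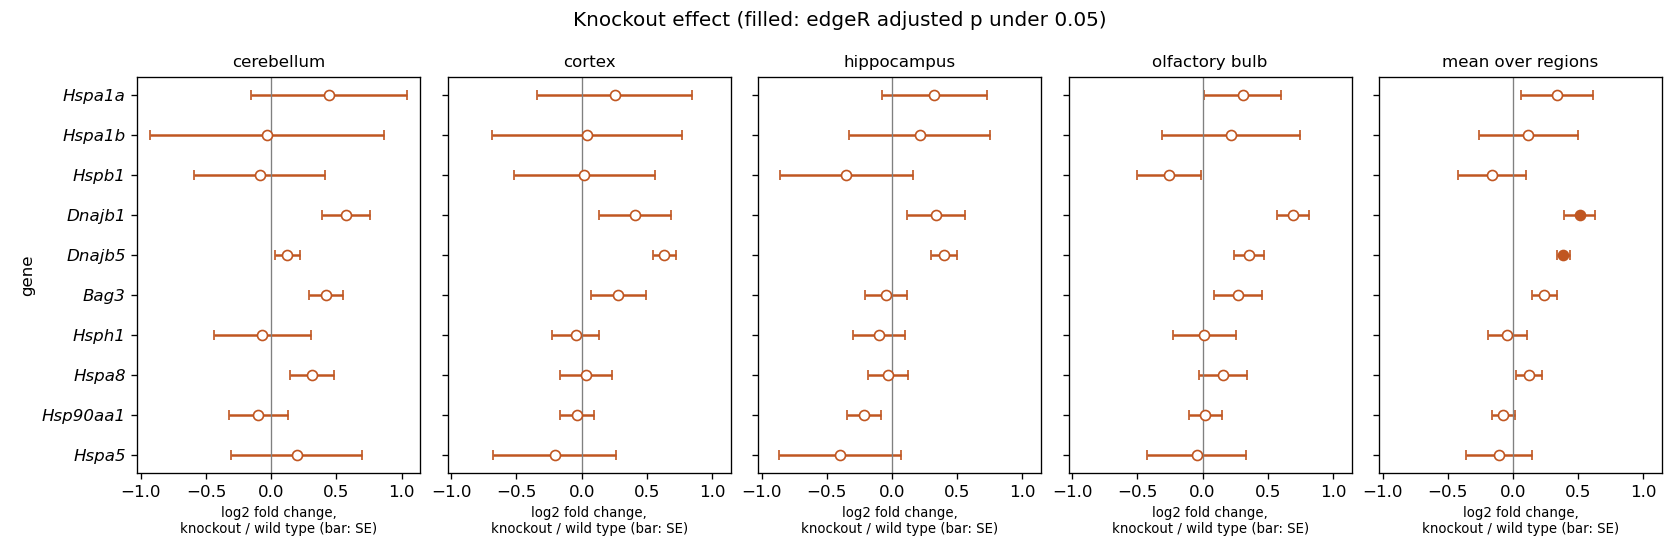
Log2 fold change of knockout over wild type for the 10 genes in each region and as the mean over regions, with bars of 1 SE and filled points for an edgeR adjusted p under 0.05. Filled points are found for Dnajb1 (0.51) and Dnajb5 (0.39) on the mean, and the bars of Hspa1a, Hspa1b, Hspb1 and Hspa5 are the widest.

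The count of members above 0 differed with and without wild-type replicate 1. With all libraries, the members above 0 numbered 6 of 10 for cerebellum, 7 for cortex, 4 for hippocampus and 8 for bulb, with median log2 fold changes of 0.16, 0.038, -0.039 and 0.19. With the replicate number as a block, in the regions taken as paired, it was 9 in cerebellum (median 0.336), 4 in hippocampus (-0.0272) and 9 in bulb (0.232), with 0 members called. Without wild-type replicate 1 of the region these counts were 10, 10, 9 and 10, with medians of 0.61, 0.62, 0.38 and 0.38. The share of all genes with a higher mean in the knockout was 50.5%, 49%, 51.3% and 52.2% in those fits. Without knockout replicate 3 the counts were 5, 3, 3 and 7 of 10. Leaving out each of the other 4 libraries gave 5 to 9, 4 to 8, 3 to 5 and 5 to 9. Wild-type replicate 1 and knockout replicate 3 are named because most members were highest in them. Leaving out either shifts the members by construction, so the counts without them are no test of the knockout. The share of all genes is no yardstick for those counts.

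On the mean over regions, 4 of 10 members rose without the libraries numbered 1, namely Dnajb1, Dnajb5, Hspa8 (0.35, edgeR adjusted p = 0.0455) and Hsph1 (0.35, 0.0398), against 1.35% of genes. Without those numbered 2 it was Dnajb5 alone, against 1.15%, and without those numbered 3 it was 0 of 10, against 0.244%, with 3 of 10 members above 0. No member was called in all 3 of these fits. Wild-type replicate 1, where most members were highest, is among the libraries numbered 1, so the calls without them follow in part from that choice. Hspa1a and Hspa1b were at -0.28 and -0.55 without the libraries numbered 3, and Hspb1 and Hspa5 at 0.60 and 0.52 without those numbered 1.

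Other chaperone genes gave few calls on the mean over regions. Of 20 HSF1 response and cytosolic chaperone genes edgeR called 0, with 1 at an unadjusted p under 0.05 and 1 called by DESeq2, and 9 were above 0 (median -0.01). The smallest p was that of the J-domain gene Dnajb4 (0.16, edgeR adjusted p = 0.0867). Of 18 measured constitutive co-chaperones edgeR and DESeq2 called 0, with 1 at an unadjusted p under 0.05, the HSP70 exchange factor Bag2 (0.16, edgeR adjusted p = 0.215). Of 19 ER genes 1 rose, Atf4, a transcription factor of the stress response (0.16, SE 0.0349, edgeR adjusted p = 0.0132), and 16 were below 0 (median -0.092). The median over all 17266 genes was -0.0012, and 2421 of them were at an unadjusted edgeR p under 0.05.

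These counts differed without the libraries numbered 1. Then 18 of 19 ER genes were above 0 (median 0.168) and 3 rose, the ER stress protein Creld2, the ER exchange factor Hyou1 and the disulfide isomerase Pdia4, while Atf4 was not called. Of the 20 HSF1 response genes 19 were above 0 (median 0.134) and Dnajb4 rose, and of the 18 constitutive co-chaperones 16 were above 0 (median 0.0536) and 0 were called. Without the libraries numbered 2 the genes above 0 were 3 of 19, 5 of 20 and 12 of 18, and without those numbered 3 they were 2, 5 and 5, with 0 called in each list. The ER list thus had 16 genes below 0 with all libraries and 1 without those numbered 1. Most ER genes were highest in wild-type replicate 1, so leaving it out raises their fold changes by construction.

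Of the 12 early genes 11 rose on the mean over regions, with a median of 1.2, and 11, 2 and 3 without the libraries numbered 1, 2 and 3, with 12 of 12 above 0 each time. The early genes' summed level ran from 148 to 829 CPM in wild-type and 256 to 2125 CPM in knockout libraries. Of 6 choroid plexus markers Clic6 fell (-1.76, edgeR adjusted p = 0.0361), and the sums ran to 3240 CPM in wild-type against 1294 CPM in knockout libraries. Of 3 oligodendrocyte precursor markers Olig2 fell (-0.49). Of 4 olfactory bulb markers 1 fell, Tbx21 (-0.84, edgeR adjusted p = 0.0494), and 4 were below 0 (median -0.53). In cortex the sums of the bulb markers were 11.6 to 22.9 CPM in wild-type and 3.79 to 5.70 CPM in knockout libraries, and in cerebellum 31.7 to 41.8 and 70.5 to 99.2 CPM. Their part in the Dnajb1 and Dnajb5 results was not tested.

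Regions were compared within each genotype. In the wild type 4 of 10 members differed between regions by the edgeR F test, Dnajb5 (adjusted p = 7.22e-07), Bag3 (0.000329), Dnajb1 (0.0148) and Hsph1 (0.0469), against 67.8% of genes. In the wild type, libraries with equal numbers deviated together across regions, and with the number as a block 8 of 10 members were called, against 76.9%. In the knockout 5 of 10 were called, these 4 and Hspa1b (edgeR adjusted p = 0.0299), against 75.1%. The wild-type Hsph1 call was lost with library totals, without the low-count filter and without any 1 library other than replicate 1 of cerebellum or bulb. The knockout Hspa1b call was lost without the filter and without hippocampus replicate 3 or bulb replicate 1 or 2. The knockout Dnajb1 call was lost without cerebellum replicate 1 or cortex replicate 1 or 3. The wild-type count was 2 without the libraries numbered 3, against 42.1%. Over the 6 region pairs, 13 of 60 contrasts were called in the wild type, 31 of 60 with the block (against 20.3%, 49.6%, 53.5%, 53.9%, 57.2% and 61.5% of genes in the 6 pairs), and 20 of 60 in the knockout. For cerebellum against cortex, hippocampus and bulb, the wild-type calls were 4, 3 and 2 of 10 members, against 53.7%, 49% and 46.4% of genes, and the knockout calls were 5, 4 and 3, against 59.7%, 57.4% and 52.4%. For cortex and hippocampus against bulb they were 3 and 1 in the wild type, against 44.3% and 40.9%, and 4 and 4 in the knockout, against 48.7% and 46.7%. Without the block, these shares of members were below those of all genes. With it, 80% against 76.9% in the F test was not.

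Dnajb5 rose from cerebellum (84.2 ± 9.40 CPM, SD, n = 3) over cortex (159 ± 10.4) and hippocampus (176 ± 15.2) to olfactory bulb (248 ± 13.4) in the wild type. Each of these regions differed from the bulb and from the cerebellum by edgeR, while cortex and hippocampus did not pass. The log2 difference of cerebellum from bulb was -1.56 in the wild type and -1.83 in the knockout, where the means were 92.2 ± 8.44, 247 ± 15.3, 233 ± 17.7 and 322 ± 43.6 CPM. For Bag3 the wild-type cerebellum was the highest region, and the means of the other 3 had the wild-type order of Dnajb5. They ran from 21.9 ± 2.58 CPM in cerebellum over 14.8 ± 3.05 in bulb and 11.7 ± 1.93 in hippocampus to 7.45 ± 2.21 in cortex. Cortex against hippocampus did not pass for either gene, and in the knockout only Bag3 kept hippocampus above cortex. In the wild type, cerebellum differed from each other region for Bag3, with log2 differences of 1.56 to cortex, 0.90 to hippocampus and 0.56 to bulb. Cortex differed from bulb (-0.999). The difference of cerebellum from bulb (edgeR adjusted p = 0.0456) was called in 9 of 20 alternatives. It was lost (0.0526 to 0.17) without any 1 of the wild-type cerebellum replicates 1, 2 and 3, hippocampus replicates 2 and 3, and bulb replicates 1 and 3. In the knockout the difference of hippocampus from bulb passed as well (-0.67).

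Dnajb1 was highest in cortex (67.2 ± 21.8 CPM in the wild type, 89.7 ± 21.3 in the knockout), above cerebellum (log2 -0.87 and -0.72 for cerebellum minus cortex) and bulb (0.91 and 0.62 for cortex minus bulb). Hsph1 was lower in cerebellum than in cortex (-1.15 and -1.19) and hippocampus (-1.11 and -1.10), and in the knockout cortex and hippocampus were also above bulb (0.70 and 0.60). Both wild-type Hsph1 calls were lost without cerebellum replicate 2 or 3, and also without replicate 1 of cortex or of hippocampus for the contrast with that region (edgeR adjusted p = 0.0896 to 0.115). The knockout Dnajb1 difference of cortex from bulb was lost without cortex replicate 1 or 3 or bulb replicate 1 or 2 (0.061 to 0.103). For Hspa1b the knockout hippocampus (16.6 ± 6.40 CPM) was above the bulb (5.15 ± 1.72) by 1.70. For cortex against hippocampus 0 of 10 members passed in either genotype, against 13.5% of genes in the wild type and 21% in the knockout. At an unadjusted edgeR p under 0.05 there were 1 and 2 members, against 4193 of 16729 and 5491 of 16875 genes. Hspb1, Hspa1a, Hspa8, Hsp90aa1 and Hspa5 did not pass the F test between regions in either genotype without the block. With it, in the wild type Hspa1a (edgeR adjusted p = 0.0283), Hspa8 (0.00141), Hsp90aa1 (0.0282) and Hspa1b passed, and Hspb1 (0.486) and Hspa5 (0.0766) did not. Of the other chaperone genes, 10 of 20 HSF1 response genes, 10 of 18 constitutive co-chaperones and 2 of 19 ER genes differed between regions in the wild type, against 67.8% of all genes. In the knockout 15, 12 and 11 did, against 75.1% of all genes. None of these lists was above the share of all genes.

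**Figure D4:**
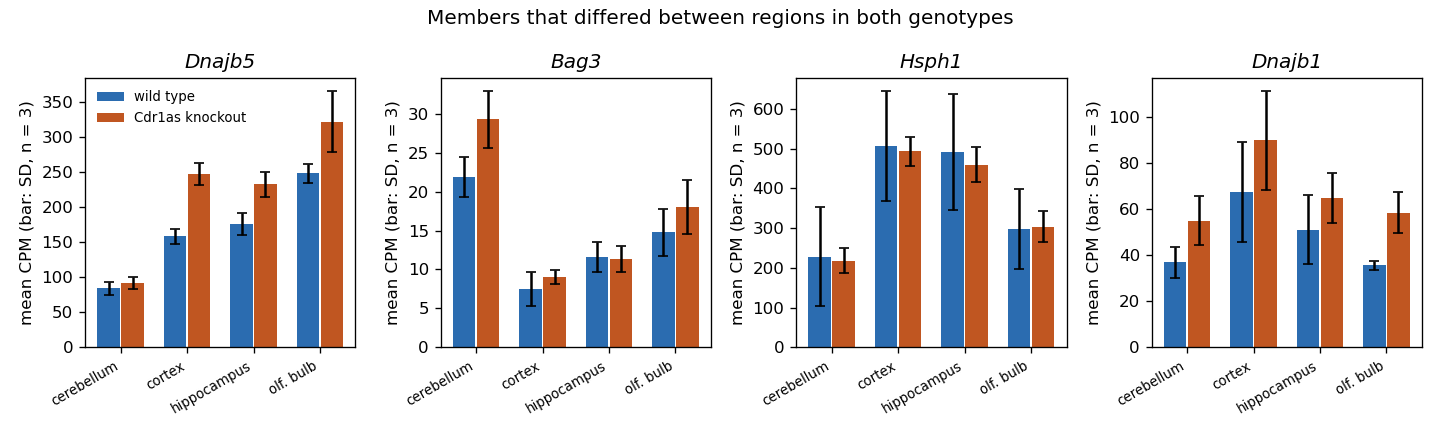
Mean CPM of Dnajb5, Bag3, Hsph1 and Dnajb1 in each region (bars from 0, error bars 1 SD, n = 3 libraries), with wild type in blue and Cdr1as knockout in orange. Dnajb5 is lowest in cerebellum and highest in olfactory bulb, Bag3 is highest in cerebellum, and the wild-type bars of Hsph1 have the wider errors.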

How the data were processed

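Poly(A) RNA of 24 libraries (8 groups of 3) was sequenced with a stranded kit, per the labels' protocols. The deposited tables hold raw read counts per gene; per the submitters' processing notes they were made with bcl2fastq 2.17.1.14, STAR 2.5.1b and HTSeq 0.6.1p1 on mm9, and the strand setting is not given in the sources used here. The 5 summary lines of each table were left out of totals. Of gene counts and summary lines together, reads in no feature came to 8.22% to 16.8% and reads that fit several places to 10.3% to 13.5%. Identifiers were matched to GENCODE M21 symbols (32897 of 37621).

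Counts were scaled with TMM, filtered with filterByExpr and tested with edgeR 4.0.16 (quasi-likelihood F test, R 4.3.3), with Benjamini-Hochberg adjustment over all genes tested and a threshold of 0.05. Single regions were fitted on their 6 libraries, the mean over regions on all 24, and regions within a genotype on its 12. Groups were taken from the labels. All 10 members are described, with the 5 genes most like Hspa1a, Dnajb1, Hspa8 and Hspa5 and lists of related genes and markers. Members and lists were chosen with earlier results of these data known. The code was tested on simulated data.

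Replicate numbers come from the labels, which do not say what they mark. Deviations of equally numbered libraries correlated at 0.255 to 0.709 between genotypes in cerebellum, 0.326 to 0.596 in hippocampus, 0.264 to 0.776 in olfactory bulb, and 0.106 to 0.66 between regions in the wild type, so they were taken as paired. In cortex (-0.0448 to 0.669) and between regions in the knockout (-0.0123 to 0.707) they were not. Libraries with unequal numbers reached 0.287 in cerebellum, 0.338 in hippocampus, 0.436 in olfactory bulb and 0.189 between regions in the wild type. Each of these is above the lowest value for equal numbers there, so the pairing is uncertain. Alternatives were DESeq2 1.42.0, its size factors, library totals, no filter, a replicate block, limma 3.58.1 with correlated libraries, rank correlation, and leaving out each library. Leaving out all libraries of 1 number, or 1 region, was chosen after seeing the data.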

Additional observations from a re-analysis of the deposited data

How the results depend on the processing

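The knockout count of members was 1 in cortex without the low-count filter, with the replicate block and by DESeq2, and 1 in bulb by DESeq2; the paired analysis changed no other knockout call. On the mean over regions the 2 calls were 4, 1 and 0 without libraries numbered 1, 2 and 3, and 1 with correlated libraries, without cerebellum and without bulb; the block kept both. Over all genes the 462 calls were 770 by DESeq2, 1256 with the block, 108 with correlated libraries, and 234, 200 and 42 without numbers 1, 2 and 3. Regional counts were 8 with the replicate block in both genotypes, 2 in the wild type without number 3 and 3 in the knockout without number 1. Pairwise counts were 31 (block), 21 (without number 1) and 7 (without number 3) in the wild type and 33 (block) in the knockout. Apart from the wild-type fits given above with their share of genes, these regional and pairwise counts lack that share and are not results about the members. By Spearman, 3 of the 5 genes most like Hspa1a and 3 of the 5 most like Dnajb1 were shared. The cause was not tested.

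Signs turned as follows. With the block in cerebellum, Hspa1b was 0.47, Hspb1 0.11 and Hsph1 0.0521, and in bulb Hspa5 was 0.098. With library totals in bulb, Hsph1 was -0.00743 and Hsp90aa1 -0.00398. On the mean, Hsph1 was 0.016 and Hspa5 0.0579 with the block; Hspb1 0.030, Hsph1 0.013 and Hspa5 0.0515 with correlated libraries; Hspb1 0.60, Hsph1 0.35, Hsp90aa1 0.14 and Hspa5 0.52 without number 1; Hspa1a -0.28, Hspa1b -0.55 and Hspa8 -0.010 without number 3.

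Leaving out 1 library gave, in cerebellum, -0.014 to 1.28 for Hspa1a, -0.47 to 1.53 for Hspa1b, -0.40 to 0.70 for Hspb1, -0.27 to 0.48 for Hsph1, -0.24 to 0.20 for Hsp90aa1 and -0.068 to 0.89 for Hspa5. In cortex it gave -0.35 to 0.88 for Hspa1a, -0.47 to 1.03 for Hspa1b, -0.30 to 0.78 for Hspb1, -0.16 to 0.21 for Hsph1, -0.11 to 0.28 for Hspa8, -0.15 to 0.089 for Hsp90aa1 and -0.49 to 0.43 for Hspa5. In hippocampus it gave -0.089 to 0.71 for Hspa1a, -0.15 to 0.96 for Hspa1b, -0.69 to 0.48 for Hspb1, -0.17 to 0.095 for Bag3, -0.23 to 0.17 for Hsph1, -0.13 to 0.16 for Hspa8 and -0.71 to 0.30 for Hspa5. In bulb it gave -0.11 to 0.996 for Hspa1b, -0.43 to 0.067 for Hspb1, -0.13 to 0.34 for Hsph1, -0.079 to 0.17 for Hsp90aa1 and -0.30 to 0.55 for Hspa5. On the mean it gave -0.0081 to 0.51 for Hspa1b, -0.24 to 0.050 for Hspb1, -0.096 to 0.093 for Hsph1 and -0.19 to 0.072 for Hspa5. Dnajb5 (0.37 to 0.42) and Dnajb1 (0.46 to 0.58) kept their call on the mean in 24 of 24 such fits. Of 810 alternative values of knockout effects, 723 kept direction and side of the threshold and 76 changed sign; of 660 for the called region contrasts, 609 kept both and 51 lost the call.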
